A study of Mus musculus with 8 samples.

Results

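Complexes II to V of the mitochondrial respiratory chain, together with cytochrome c, were represented by 48 of the 19938 genes tested on the arrays. The members were chosen by gene symbol alone, as the succinate dehydrogenase genes Sdha to Sdhd, the genes whose symbols begin with Uqcr, Cyc1, Cycs, the Cox4 to Cox8 genes and those that begin with Atp5. Complex II gave 4 genes, complex III 9, cytochrome c 1, complex IV 17 and complex V 17. Where a gene had several probe sets, the brightest over the 8 arrays was read, and values are log2 intensities, so that a difference of 1 is a doubling. The rule for the genes used symbols and no measured value, though it was set with earlier results of these data known.

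The 8 arrays held liver RNA of male littermates 8 weeks old on a C57Bl/6 background backcrossed 5 times, per the labels' protocols. In 4 samples (titled AlbCRE+) Hmgb1, the gene of an abundant DNA-binding chromatin protein, had been deleted with Albumin-Cre, and the other 4 (titled HMGB1fl) carried floxed Hmgb1 without Cre in their titles. Cre itself and the loss of Hmgb1 therefore cannot be told apart. The albumin promoter drives Cre in hepatocytes, and deletion in other liver cells was not measured here. No treatment is described for either group. Whether each array came from its own animal is not said in the labels, and the p-values then reflect only the spread among these arrays. The characteristics field names stellate cells and Balb/c, against whole liver and C57Bl/6 elsewhere in the labels. Albumin lay between 13.26 and 14.03 on all 8 arrays. Control means of the 9 hepatocyte markers read here ran from 11.98 (Hnf4a) to 13.98 (Alb). Those of the 10 stellate cell markers ran from 5.775 (Hhip) to 9.16 (Reln). Levels of different probe sets compare only roughly, and which label names the tissue was not tested. The single-gene probe set of Hmgb1 fell by 0.905 on the log2 scale in the deleted samples (SE 0.14, limma adjusted p = 0.0216). That call was lost in 5 alternatives, at adjusted p-values from 0.0561 to 0.0797, among them each of deleted 3, deleted 4, control 3 and control 4 left out. The mean of this Hmgb1 probe set lay under 6.14, the median of all probe set values. The alternative without dim genes therefore did not hold it.

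These complexes carry electrons from succinate and ubiquinol to oxygen and turn the resulting proton gradient into ATP. Complex II, succinate dehydrogenase, belongs to both the citrate cycle and the chain and pumps no protons. Complex III passes electrons from ubiquinol to cytochrome c, complex IV reduces oxygen, and complex V is the ATP synthase. Except in complex II, some core subunits are encoded by mitochondrial DNA, and several nuclear subunits of complex IV exist as liver and muscle forms. The series title names mitochondrial quality control, and the comparison asked whether transcripts of these nuclear subunits differed with Hmgb1 deletion, complex by complex.

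None of the 48 genes passed the threshold (0 of 48, limma, adjusted p under 0.05, lowest adjusted p 0.153), where 0.692% of all genes did (0.396% lower and 0.296% higher). At an unadjusted p under 0.05 there were 4 members, 3 of them lower and 1 higher, against 9.46% of all genes (4.53% lower and 4.93% higher), so the share of members was near the background. In no member did the 4 deleted arrays lie apart from the 4 controls, where 5.57% of all genes did (2.30% lower and 3.28% higher). Deleted means were below control means for 39 of 48 members, with a median log2 fold change of −0.060, or −4.07%, and 49.8% of all genes were lower, with a median of 0. Every one of the 48 intervals (95%, moderated fit) lay within a 1.5-fold change in either direction (47 without control 1). The standard errors ran from 0.059 to 0.13.

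**Figure D1:**
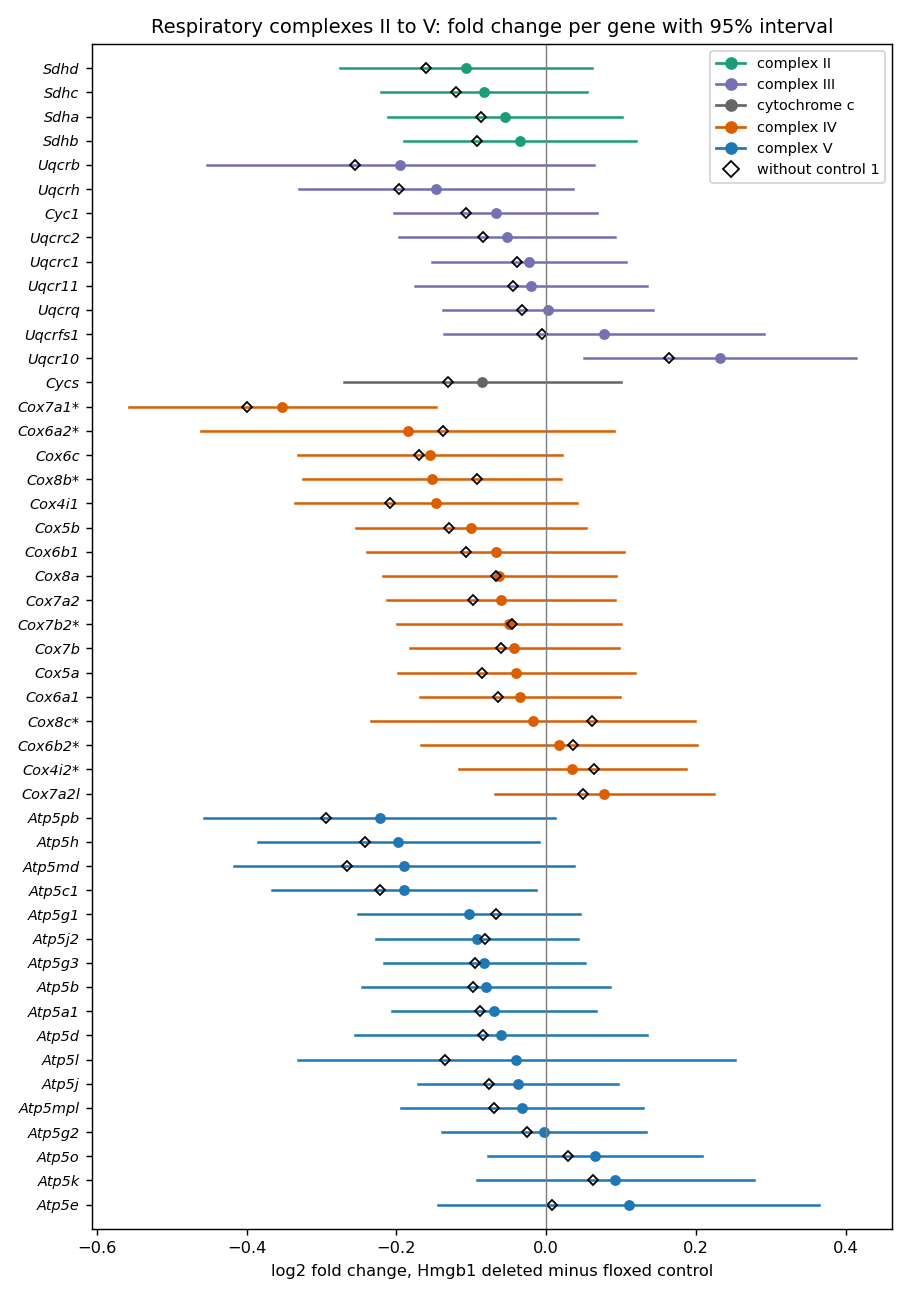
Log2 fold change of each of the 48 genes, deleted minus control, with its 95% interval (x axis) by gene (y axis, ordered by complex), and the value without floxed control 1 as an open diamond. Asterisks mark isoforms of tissues other than liver. Most points lie left of 0, 4 intervals exclude 0, and the median of −0.060 becomes −0.086 when control 1 is left out.

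The complexes lay close together in their medians, and the differences between complexes were not tested. Complex II had a median log2 fold change of −0.069 with 4 of 4 genes lower, complex III −0.022 with 6 of 9 lower, complex IV −0.060 with 14 of 17 lower, and complex V −0.070 with 14 of 17 lower. Cycs, which carries electrons from complex III to complex IV, had −0.085. The SD of the gene averages over 4 arrays was 0.062, 0.079, 0.055 and 0.078 in the deleted samples and 0.092, 0.092, 0.018 and 0.073 in the controls, for complexes II to V in turn. Without control 1 the control SDs were 0.021, 0.019, 0.015 and 0.014. After quantile normalization was applied again, complex II had 2 of 4 lower (median −0.0065), complex III 3 of 9 (0.023), complex IV 11 of 17 (−0.023) and complex V 8 of 17 (0.00030), and Cycs was at 0.016. Without control 1 as well, these were 3 of 4 (−0.025), 3 of 9 (0.015), 10 of 17 (−0.033) and 7 of 17 (0.011). Averaged over its genes, complex II had deviations from the 8-array mean of 0.0044, 0.017, −0.041 and −0.12 on deleted arrays 1 to 4 and of −0.10, 0.10, 0.072 and 0.064 on control arrays 1 to 4. Control 1 was thus among the lowest arrays while the other controls were the 3 highest. Complex III gave 0.018, 0.069, −0.12 and −0.011 on the deleted arrays against −0.12, 0.063, 0.071 and 0.034 on the controls, and complex V −0.0057, 0.060, −0.12 and −0.066 against −0.075, 0.058, 0.086 and 0.064. In both, deleted 3 and control 1 were the 2 lowest arrays. Complex IV without its tissue isoforms gave 0.0011, 0.054, −0.12 and −0.065 against −0.061, 0.052, 0.10 and 0.033.

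**Figure D2:**
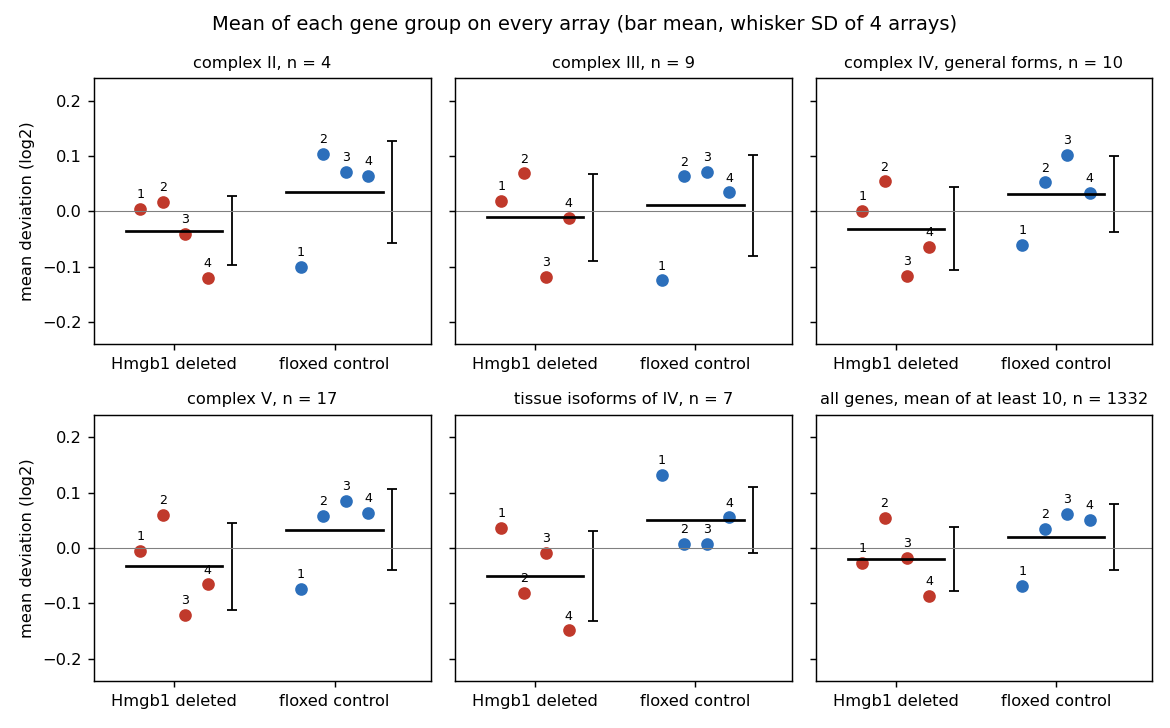
Mean deviation of a gene group from its 8-array mean (y axis, log2) on each array, numbered by replicate, with the group mean as a bar and the SD of 4 arrays as a whisker. Control 1 lies above the other controls for the tissue isoforms and below them for complexes II to V, as it does for all genes with a mean of at least 10 (−0.069). Deleted 3 is lowest of the deleted arrays for complexes III and V (−0.12 each), whereas over all those bright genes it is at −0.018 and deleted 4 is lowest at −0.086.

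Over all genes, floxed control 1 lay far from the rest. Its score on principal component 1, which held 37.6% of the variance, was −26.6, and the remaining 7 arrays scored from −11.4 to 11.7. It also had the lowest of the limma array weights, 0.254, with the others at 0.592 to 2.58. Over the members it was the lowest control for 38 of 48 genes (79.2%), and over all genes for 36.95%. Without it the median of the 48 became −0.086 (−5.80%), 40 were lower (45.1% of all genes), and the complexes II, III, IV and V had medians of −0.11, −0.044, −0.085 and −0.084. None passed the threshold there either (0 of 48, limma), where 1.61% of all genes passed (1.16% lower and 0.451% higher). At an unadjusted p under 0.05 there were 8 lower and 1 higher, against 14.0% of all genes (8.59% lower and 5.42% higher). The deleted arrays then lay below all 3 remaining controls for 13 of 48 members (27.1%), namely Sdhb, Sdhc, Sdhd, Cyc1, Uqcrh, Cox4i1, Cox7a1, Atp5a1, Atp5c1, Atp5pb, Atp5h, Atp5j and Atp5md. The share over all genes was 7.66%. They lay above the 3 controls for 0 members, against 5.65% of all genes.

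Brightness moved with this count and with the shift. Of the 48 members 34 had a mean log2 intensity of at least 10, a limit chosen after the values were seen, and 32 of these 34 were lower in the deleted samples, against 7 of the 14 dimmer members. All 1332 genes at or above that level leaned the same way, with 61.4% lower and a median of −0.035. Between 11 and 12 the median was −0.051 over 398 genes and −0.083 over 15 members, and between 12 and 13 it was −0.078 over 171 genes and −0.083 over 8 members. Between 10 and 11 the values were −0.010 over 736 genes and −0.060 over 11 members. Without control 1 the arrays lay apart, lower in the deleted samples, for 20.6% of all genes at or above 10 and for 12 of the 34 members there (35.3%). Quantile normalization applied again, which sets the arrays to a common distribution, left 24 of 48 members lower and 24 higher, with a median of 0.00010 (24 lower also without control 1). The part of brightness in the members' shift was not tested beyond these values.

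**Figure D3:**
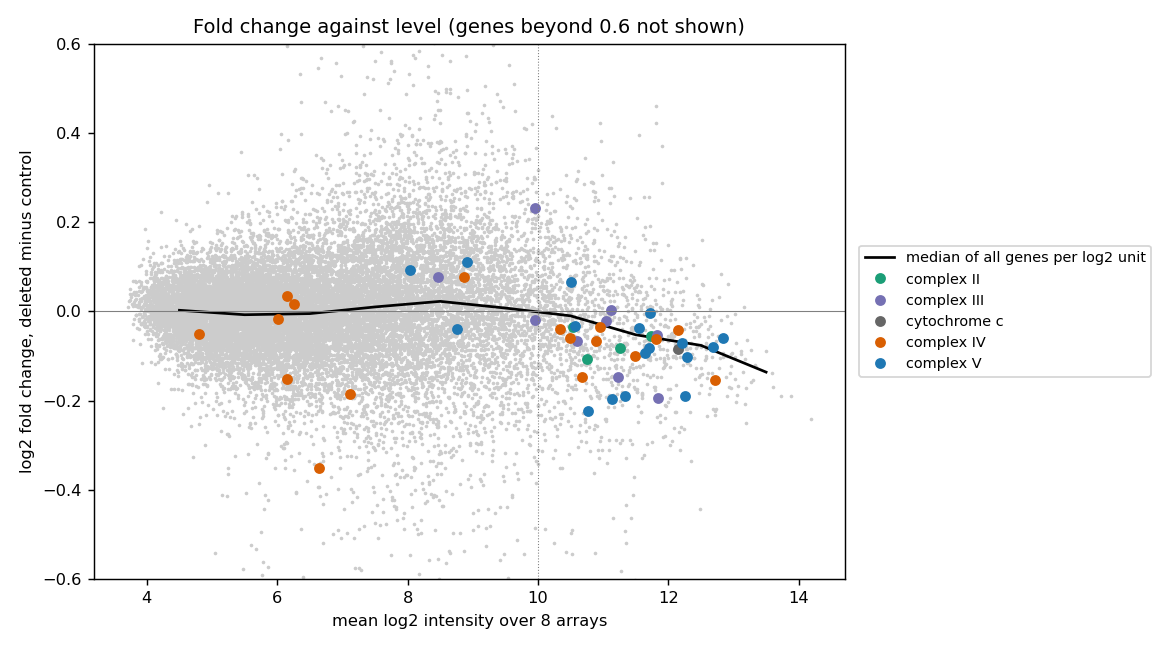
Log2 fold change (y axis, deleted minus control) against mean log2 intensity over 8 arrays (x axis) for all genes in grey and the members in colour, with 121 genes beyond ±0.6 not shown. The black line, the median of all genes per log2 unit with at least 20 genes, falls from 0.022 between 8 and 9 to −0.14 between 13 and 14, and the bright members lie around and below it.

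Promoter sequences were read for the 4 members with an unadjusted p under 0.05, since these came nearest to the threshold. The 250 bases before the RefSeq start are shown 5′ to 3′ on the gene's strand (build GRCm38.p6), with capitals for matches to letters bound by regulators of respiratory genes. Atp5c1 has 2 such starts, and the one that holds a match is shown.

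Atp5c1, chr2:10080433-10080682, - strand: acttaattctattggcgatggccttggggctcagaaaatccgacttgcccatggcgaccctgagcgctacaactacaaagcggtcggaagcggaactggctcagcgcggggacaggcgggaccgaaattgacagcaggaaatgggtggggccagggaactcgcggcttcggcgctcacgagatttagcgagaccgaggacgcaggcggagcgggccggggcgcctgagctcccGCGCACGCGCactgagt
Atp5h, chr11:115419920-115420169, - strand: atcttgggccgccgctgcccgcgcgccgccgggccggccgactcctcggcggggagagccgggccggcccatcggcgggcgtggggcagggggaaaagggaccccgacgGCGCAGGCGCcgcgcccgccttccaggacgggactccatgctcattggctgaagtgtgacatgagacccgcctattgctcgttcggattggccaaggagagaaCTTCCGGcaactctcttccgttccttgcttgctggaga
Cox7a1, chr7:30183921-30184170, + strand: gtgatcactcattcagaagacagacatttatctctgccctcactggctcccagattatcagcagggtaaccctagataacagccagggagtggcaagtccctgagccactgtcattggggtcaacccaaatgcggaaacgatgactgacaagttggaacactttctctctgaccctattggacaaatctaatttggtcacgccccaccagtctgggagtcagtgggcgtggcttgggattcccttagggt
Uqcr10, chr11:4704345-4704594, - strand: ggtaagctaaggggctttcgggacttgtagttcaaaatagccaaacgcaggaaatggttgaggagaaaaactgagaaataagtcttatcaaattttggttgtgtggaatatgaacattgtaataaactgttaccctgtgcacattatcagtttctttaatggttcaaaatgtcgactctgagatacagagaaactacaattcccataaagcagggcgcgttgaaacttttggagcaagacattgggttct

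Letters searched, on both strands of windows of 300 bases (250 before to 50 after the start), were GCGCA, any base and GCGC for NRF1, CCGGAAG for the ETS family that includes GABP, AAGATGGCG for YY1 and GGGCGG for the SP family. Windows were found for 36 of the 48 members. The NRF1 letters occurred in 10 of 36 (27.8%), against 5.19% of all 27025 genes with a window, and the ETS letters in 13 (36.1%) against 9.93%. The SP letters, which are common in promoters rich in G and C, occurred in 15 (41.7%) against 38.2%, and those of YY1 in 2 (5.56%) against 1.64%. Of the 4 promoters shown, Atp5c1 holds the NRF1 letters and Atp5h those of NRF1 and, read from the opposite strand, of ETS, both among the lower members, while Cox7a1 and Uqcr10 hold none of the 4. The 19 members with NRF1 or ETS letters had a median log2 fold change of −0.040 with 16 lower, and the 17 with neither −0.060 with 13 lower. A match of letters is a description of the sequence and not a measured site.

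In complex II, Sdhd, a membrane anchor, had 10.79, 10.77, 10.62 and 10.59 on deleted arrays 1 to 4 and 10.64, 10.88, 10.87 and 10.81 on the controls. The deleted values all lay below controls 2 to 4, and control 1 lay among them. Its difference was −0.11 (SE 0.076, limma adjusted p = 0.819). Sdhc, the other anchor, had −0.083, the iron-sulfur subunit Sdhb −0.035 and the catalytic flavoprotein Sdha −0.055. Sdha was even on deleted arrays 1 to 3, at 11.75, 11.77 and 11.78, and low on deleted 4 at 11.55, against controls of 11.67, 11.83, 11.76 and 11.81. Sdhb was low on control 1, at 10.38 against 10.59 to 10.62 on the other controls. Its deleted arrays ran from 10.45 to 10.56.

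In complex III the member with the smallest p was the only higher one of the 4 with an unadjusted p under 0.05. Uqcr10, a small subunit, had 9.93, 10.08, 10.15 and 10.15 on the deleted arrays and 9.64, 9.91, 9.93 and 9.90 on the controls. Its groups met at 9.93, the value of deleted 1 and of control 3. Its difference was 0.23 (SE 0.082, limma adjusted p = 0.333), 0.16 without control 1. Uqcrb, a small subunit near the ubiquinol site, had 11.90, 11.95, 11.40 and 11.74 on the deleted arrays against 11.76, 11.95, 12.08 and 11.98, a difference of −0.20 (SE 0.12, limma adjusted p = 0.739). Deleted 3 lay 0.34 below the next array. Uqcrh, the hinge protein, had 11.25, 11.19, 10.94 and 11.21 against 11.15, 11.39, 11.34 and 11.30, and Cyc1, the cytochrome c1 that hands electrons to cytochrome c, 10.56, 10.60, 10.59 and 10.54 against 10.52, 10.70, 10.70 and 10.64. For both genes every deleted array lay below controls 2 to 4 and above control 1, apart from deleted 3 for Uqcrh. The core proteins Uqcrc1 and Uqcrc2 (−0.022 and −0.052), the Rieske protein Uqcrfs1 (0.078), Uqcr11 (−0.020) and Uqcrq (0.0025) lay between.

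Cycs had 12.25, 12.14, 12.01 and 12.02 on the deleted arrays and 12.05, 12.21, 12.37 and 12.13 on the controls. The groups overlapped with and without control 1. Its 3 probe sets differed in sign, from −0.15 to 0.15, and their levels ran from 5.33 to 12.15.

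In complex IV the largest difference of all 48 genes fell on Cox7a1, the heart and muscle form of subunit 7A. It had 6.70, 6.51, 6.32 and 6.34 on deleted arrays 1 to 4 against 6.68, 6.79, 6.91 and 6.90 on the controls, so that only deleted 1 and control 1 crossed. These values are not far above the array medians, which ran from 6.08 to 6.22, and 52.3% of all genes were dimmer than Cox7a1. Its mean was 6.47 ± 0.18 (SD, n = 4) against 6.82 ± 0.11 (SD, n = 4), which differed by −0.35 (SE 0.093, limma adjusted p = 0.153), and by −0.40 (adjusted p = 0.0654) without control 1. It passed with array weights and with both arrays numbered 1 left out (adjusted p of 0.0123 at the lowest, 0.405 at the highest, over 21 alternatives). Markers of skeletal and heart muscle were read on the same arrays. Of 8 measured, 3 were lower and 5 higher, their summed level ran from 9.32 to 9.54 on deleted and 9.35 to 9.58 on control arrays, and myoglobin, Mb, had −0.12 (adjusted p = 0.768). The sum was highest on deleted 1 and control 1, and its part in the values of Cox7a1 was not tested.

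The liver form Cox7a2 had −0.060 (adjusted p = 0.948), with 10.33 to 10.55 on deleted and 10.40 to 10.58 on control arrays, and Cox7a2l, a related factor of supercomplex assembly, 0.078. For subunit 4 the general form Cox4i1 had 10.67, 10.70, 10.41 and 10.61 against 10.56, 10.80, 10.85 and 10.77. Its difference was −0.15 (SE 0.085, limma adjusted p = 0.717), and the deleted arrays lay below controls 2 to 4. The lung form Cox4i2 had 0.035, with 6.08 to 6.29 against 6.03 to 6.22, where array medians ran from 6.08 to 6.22. For subunit 6A the liver form Cox6a1 had −0.035 and the heart and muscle form Cox6a2 −0.19, with deleted 4 at 6.61 against 7.07 to 7.24 on the other deleted arrays. For subunit 6B the general form Cox6b1 had −0.068 and the testis form Cox6b2 0.018. For subunit 7B, Cox7b had −0.043 and the testis form Cox7b2 −0.050, with all 8 values of the latter between 4.66 and 4.92, below every array median. For subunit 8 the liver form Cox8a had −0.063, the heart and muscle form Cox8b −0.15 and the testis form Cox8c −0.018. Cox8b was highest on control 1, at 6.40 against 6.02 to 6.28 elsewhere. Cox6c, which has no tissue form here, had 12.76, 12.79, 12.52 and 12.48 against 12.75, 12.79, 12.84 and 12.79, a difference of −0.16 (SE 0.080, limma adjusted p = 0.642). It was as high on deleted 1 and 2 as on the controls and low on deleted 3 and 4.

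The 10 general or liver forms of complex IV had a median of −0.061 with 9 lower, and the 7 tissue isoforms −0.050 with 5 lower. Control 1 ranked in opposite ways in these groups, lowest of the controls for the first (−0.061) and highest for the second (0.13). The remaining general subunits Cox5a and Cox5b had −0.040 and −0.100. Cox7c was named only by 3 probe sets shared with the predicted gene Gm12338. Their differences of −0.18, −0.15 and −0.17 were not tested.

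**Figure D4:**
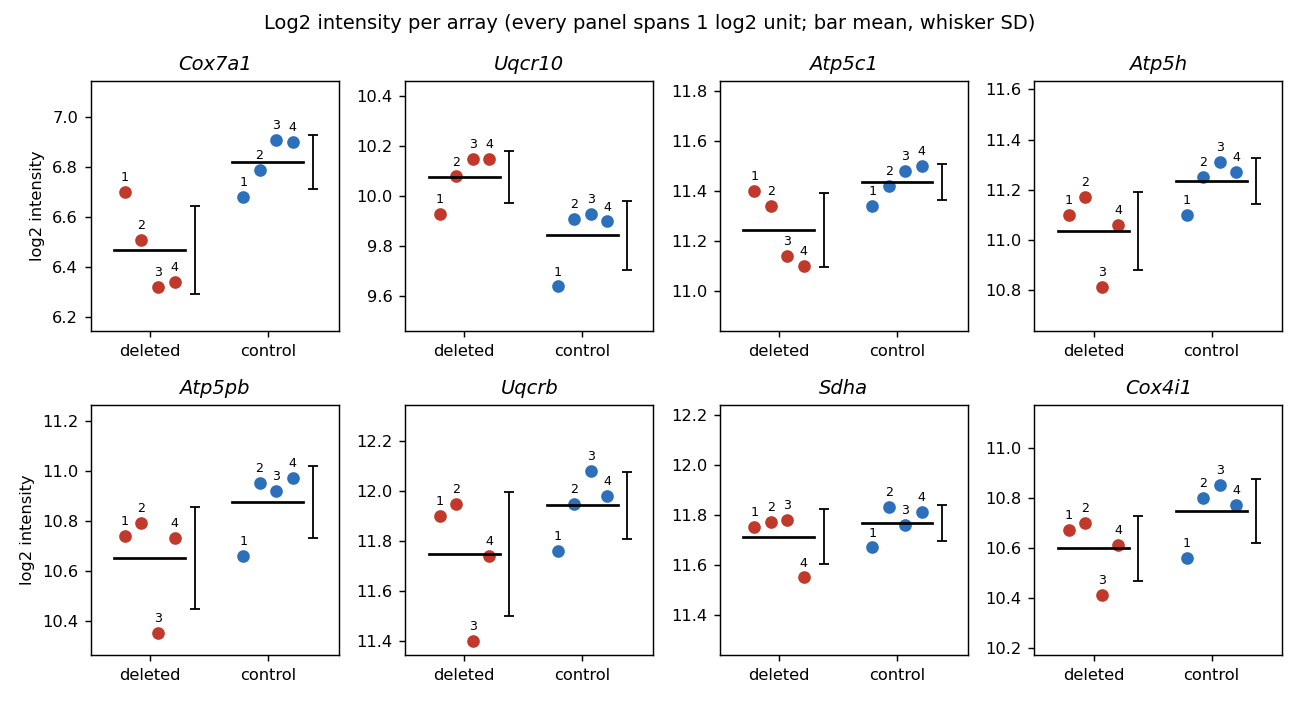
Log2 intensity (y axis, each panel 1 log2 unit high) of 8 members on every array, numbered by replicate, with the mean as a bar and the SD of 4 arrays as a whisker. In Cox7a1 only the arrays numbered 1 cross between the groups, Uqcrb and Atp5pb are lowest on deleted 3, and Sdha on deleted 4.

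In complex V the peripheral stalk, which holds the catalytic head still against the turning rotor, had the lowest median of the enzyme's parts, −0.12 over 4 genes. Atp5pb, subunit b of the stalk, had 10.74, 10.79, 10.35 and 10.73 on the deleted arrays and 10.66, 10.95, 10.92 and 10.97 on the controls. Deleted 3 was low within its group and control 1 within its own. Its difference was −0.22 (SE 0.11, limma adjusted p = 0.580), −0.29 without control 1. Its other probe set had −0.013. Atp5h, subunit d, had 11.10, 11.17, 10.81 and 11.06 against 11.10, 11.25, 11.31 and 11.27, a difference of −0.20 (SE 0.085, limma adjusted p = 0.487), and its 3 probe sets ran from −0.21 to −0.18. The deleted arrays lay below controls 2 to 4, and deleted 1 equalled control 1. Atp5j, the coupling factor, had −0.038, and Atp5o, which joins stalk and head, 0.065.

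In the catalytic head, Atp5c1, the gamma subunit that turns inside it, had 11.40, 11.34, 11.14 and 11.10 on the deleted arrays against 11.34, 11.42, 11.48 and 11.50. Deleted 3 and 4 lay below all controls. Its difference was −0.19 (SE 0.080, limma adjusted p = 0.469). The alpha and beta subunits, Atp5a1 and Atp5b, had −0.070 and −0.080. Atp5b was even on 7 arrays, from 12.67 to 12.75, and low on deleted 4 at 12.43. The delta subunit Atp5d was likewise lowest on deleted 4, at 12.54 against 12.80 to 12.93 elsewhere, and the epsilon subunit Atp5e had 0.11. Averaged over the 5 head genes deleted 4 was lowest, at −0.17, whereas deleted 3 was lowest for the stalk, at −0.19, and for the small membrane subunits, at −0.20. Deleted 4 lay above 0 for the latter, at 0.042. On deleted 4 albumin was also low, at 13.26 against 13.93 to 14.03 elsewhere, and 23.8% of all genes had their lowest value there, against 7.79% on deleted 3. Of the members 15 of 48 (31.2%) were lowest on deleted 4 and 18 (37.5%) on deleted 3.

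The c ring, the rotor in the membrane, is encoded by 3 genes whose products share the same mature protein. Atp5g1 had 12.17, 12.32, 12.26 and 12.17 against 12.44, 12.28, 12.37 and 12.24, and was highest on control 1, unlike most members. Its difference was −0.10 (adjusted p = 0.782), that of Atp5g3 −0.083 (0.840) and that of Atp5g2 −0.0025 (0.996). How far their probe sets detect each other's transcripts was not tested. Of the small membrane subunits, Atp5md, the protein DAPIT that stabilises dimers of the enzyme, had 12.27, 12.29, 11.94 and 12.13 against 12.12, 12.38, 12.55 and 12.34, a difference of −0.19 (SE 0.10, limma adjusted p = 0.674). Its 3 probe sets ran from −0.26 to −0.19. Atp5j2, Atp5k, Atp5l and Atp5mpl had −0.093, 0.093, −0.040 and −0.033.

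Several probe sets existed for 13 of the 48 genes. Over all 48 genes there were 70 probe sets, and 56 of these 70 were lower in the deleted samples. In 4 genes, Atp5g2, Atp5l, Cycs and Uqcr11, the sets differed in sign. Many of these genes have processed copies elsewhere in the genome, and which of these each probe set reads was not tested.

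The regulators that act on such genes were read from a list of 15, all measured. At the threshold 0 of 15 passed (limma, 4 at an unadjusted p under 0.05, 2 lower and 2 higher, against 9.46% of all genes), with 9 lower and 6 higher, and the groups did not overlap for 4, where 5.57% of all genes lay apart. Ppargc1a, the coactivator that raises mitochondrial gene expression in fasting, had 7.37, 8.14, 7.70 and 7.79 on deleted arrays 1 to 4 and 9.14, 8.21, 8.27 and 8.65 on the controls. All deleted arrays lay below all controls, and control 1 was the highest array for this gene. The difference was −0.82 (SE 0.21, limma adjusted p = 0.134), −0.63 (0.0935) without control 1. Its relative Ppargc1b had 7.13, 7.30, 7.33 and 7.10 against 7.50, 7.63, 7.62 and 7.52, a difference of −0.35 (SE 0.072, limma adjusted p = 0.0618). Without control 1 it passed, at −0.375 (limma adjusted p = 0.0357), and it passed in 6 of 21 alternatives in all. Esrra, a nuclear receptor that works with these coactivators, was 7.67, 7.56, 7.55 and 7.52 against 7.32, 7.36, 7.39 and 7.42, higher on every deleted array by 0.20 on average (SE 0.059, limma adjusted p = 0.208). Polrmt, the mitochondrial RNA polymerase, had 0.235 (0.253), with deleted arrays from 8.67 to 9.01 and controls from 8.58 to 8.64. Nrf1, Gabpa and the mitochondrial transcription factor Tfam had −0.018, −0.15 and −0.11, and their groups overlapped. The part of these regulators in the members' values was not tested.

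**Figure D5:**
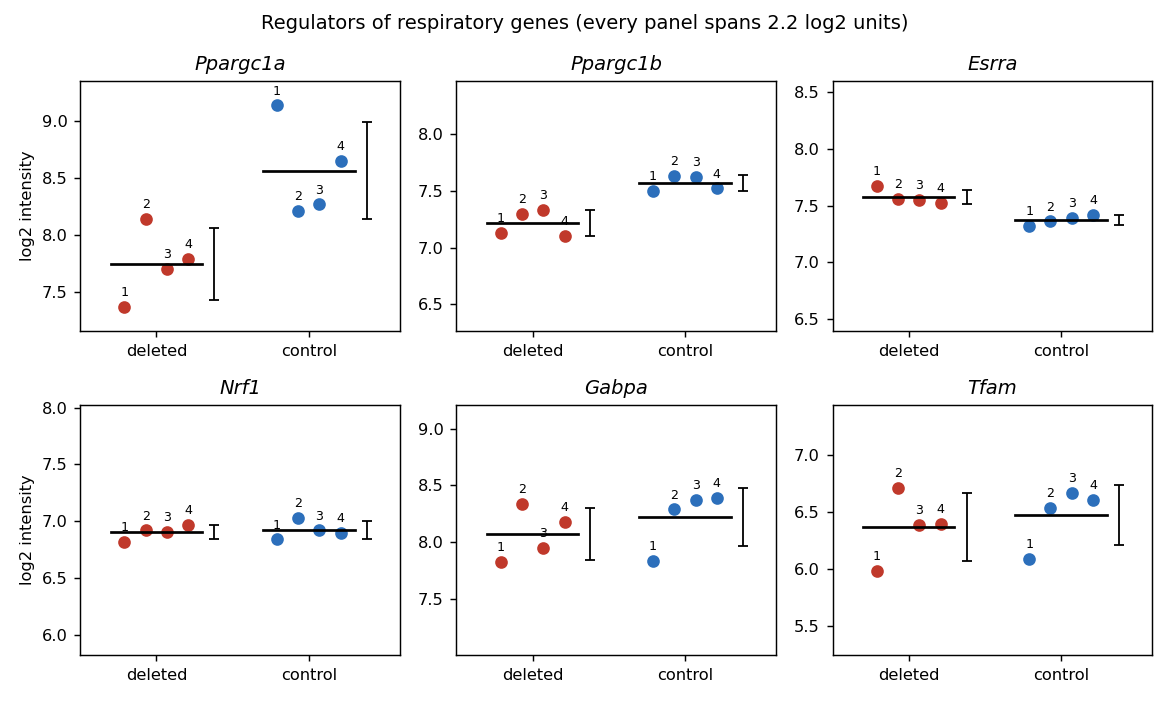
Log2 intensity (y axis, each panel 2.2 log2 units high) of 6 regulators on every array, numbered by replicate, with the mean as a bar and the SD of 4 arrays as a whisker. The groups do not overlap for Ppargc1a, Ppargc1b and Esrra, and control 1 is the highest array for Ppargc1a.

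Assembly factors of complexes II to V, which insert cofactors and join subunits without being part of the enzymes, were more often higher. Of 35 measured from a list of 39, 24 were higher and 11 lower (31.4%), with a median of 0.063 and 0 past the threshold (3 higher at an unadjusted p under 0.05, background 4.93%). Most had means between 7 and 9. Of all genes 46.5% were lower between 7 and 8, and 42.6% between 8 and 9 (median 0.0225). Of the members, the 1 between 7 and 8 was lower, and 1 of 5 between 8 and 9 (median 0.0775). The part of brightness in this lean was not tested. Taco1, a translational activator of a mitochondrially encoded subunit of complex IV, had 8.14, 8.44, 8.50 and 8.44 against 7.62, 8.01, 8.10 and 8.15, a difference of 0.41 (SE 0.12, limma adjusted p = 0.209). Control 1 was low, and deleted 1 lay just under control 4. It passed in 3 of 21 alternatives. Cox10, which makes the heme of complex IV, had 8.08, 8.20, 8.31 and 8.17 against 7.94, 7.85, 8.04 and 8.07, with the groups apart (0.215, SE 0.073, limma adjusted p = 0.305). Coa6, a copper-handling factor, had 0.21 (adjusted p = 0.506). Without control 1 the median over the 35 was 0, with 17 lower and 17 higher. Atpif1, the inhibitor of ATP synthase, had 0.053 (limma adjusted p = 0.959). Dmac2 and Dmac2l, listed with it, had −0.080 (0.949) and 0.0175 (0.992).

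Complex I, which feeds electrons from NADH into the same chain, had 21 of 34 measured subunits lower, a median of −0.048 and 0 past the threshold. Without control 1 these became 25 of 34 and −0.085, and 6 of the 34 then lay apart and lower (17.6%), against 7.66% of all genes and 20.6% of those with a mean of at least 10. The subunits with the smallest p were Ndufs4 (−0.195, adjusted p = 0.608), Ndufb11 (−0.11, 0.758) and Ndufa2 (0.095, 0.782). Carriers and membrane genes of oxidative phosphorylation were lower for 11 of 18, with a median of −0.039. Taz, the cardiolipin transacylase tafazzin, had 0.19 (adjusted p = 0.593), the ADP/ATP carrier Slc25a4 −0.14 (0.653) and Etfdh, which passes electrons from fatty acid oxidation to ubiquinone, −0.11 (0.743). Citrate cycle enzymes were lower for 9 of 14, with a median of −0.036, Idh3b at −0.12 (0.742), Ogdh at −0.088 (0.784) and Idh3a at 0.14 (0.792). In these 3 lists 0 genes passed (limma, 0 also at an unadjusted p under 0.05). After quantile normalization again their medians turned to 0.0070, 0.017 and 0.022. The mitochondrially encoded subunits of complexes III to V were not analysed here.

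Cell type markers that moved with the groups are given for the same arrays. In bulk liver, fewer cells of a type and less RNA per cell cannot be told apart. Hepatocyte markers had lower means for 8 of 9, with a median of −0.17 and 0 past the threshold. At an unadjusted p under 0.05 (limma) 2 were lower, against 4.53% of all genes. Most had means above 12, and of all genes 81.29% were lower between 12 and 13 and 96.15% between 13 and 14. Their summed levels were 15.865 to 16.318 on deleted arrays and 16.282 to 16.336 on controls. After quantile normalization again 4 of 9 were lower. Deleted 4 was lowest for them. Erythroid markers had summed levels of 10.6 to 10.7 on deleted and 10.8 to 11.3 on control arrays, with 4 of 7 lower (3 of 7 without control 1, median 0.005). Alas2, Car1 and Car2 at −0.55, −0.44 and −0.41 did not pass (without control 1 Alas2 and Car1 did). Slc4a1, Ermap, Hemgn and Epb42 had −0.0725, 0.0475, 0.025 and 0.0025. Sinusoidal endothelial markers were lower for 8 of 8, at 12.2 to 12.3 against 12.6 to 12.7. The lectin gene Clec4g fell by 0.615 (limma adjusted p = 0.00628), but by 0.265 (0.121) with its probe sets averaged, and Lyve1 and Fcgr2b had −0.45 and −0.20. Cholangiocyte markers were at 8.37 to 8.56 against 8.67 to 8.69, with 3 of 5 lower (2 of 5 without control 1, median 0.0033), and Sox9 at −0.35 (adjusted p = 0.0854, 0.0102 without control 1). Sox9 is the brightest of the 5 and weighs most in that sum. Epcam, Krt7, Cftr and Krt19 had −0.1925, −0.1025, 0.025 and 0.0025. Macrophage, stellate cell and lymphocyte lists overlapped between the groups, with 2 of 8, 6 of 10 and 5 of 8 markers lower. The stellate marker Rgs5 passed without control 1 (−0.39, limma adjusted p = 0.0391), where 5 stellate markers were lower and 5 higher (median −0.0008). Ngfr, the stellate marker of smallest p in the main fit, was higher, at 0.195 (limma adjusted p = 0.465). No marker list was at 0, since array intensities have a background, and the part of these lists in the members' values was not tested.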

How the data were processed

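RNA of 8 mouse liver samples (150 ng each) was hybridised to Affymetrix arrays, 4 Hmgb1 deleted and 4 floxed control. The authors deposited log2 intensities of 35556 probe sets, made with RMA per the submitters' processing notes, a method of background correction, quantile normalization and probe summary. The software version and genome build were not stated in the sources used here. Probe sets with 1 gene symbol in GEO's annotation (21789) were kept, those with several (1621) or none (12146) left out, and the brightest of each gene's sets was used, without a filter on dim genes. All 19938 genes were fitted by lmFit and eBayes of limma 3.58.1 (R 4.3.3) without covariates, and 2-sided p-values were adjusted over all genes by Benjamini-Hochberg, with 0.05 as the threshold. Each fold change is the deleted mean minus the control mean on the log2 scale. The script was tested on simulated data. Python 3.11.15 and matplotlib 3.10.9 were used. Members, lists and alternatives were chosen with earlier results of these data known. The genes named with all values were the 4 of smallest p in each complex, Cycs and the isoform families, and in other lists up to 3 of smallest p. Polrmt, Nrf1, Gabpa and Tfam, and the members described for single arrays, were added after their values were seen. Summed marker levels are log2 of summed intensities. Arrays give no read depth, so precision rests on their number. Same-numbered arrays deviated together for pairs 1 and 4 (r of 0.447 and 0.422) but not, at a limit of 0.1, for pairs 2 and 3 (0.0652 and −0.0814), so the numbers were not taken to pair the samples. Alternatives covered filtering, probe set choice, scaling, the variance prior, weighting of arrays, a block for the replicate number and each array left out.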

Additional observations from a re-analysis of the deposited data

Results flagged for a closer look

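A value was singled out when 1 array of a group of 4 lay far from the other 3, by its gap to the nearest over the group's range. In 62 such groups of the 31 members named by rule, there were 5 such values. Chance alone flags about 1 group in 20, here 3.1. No explanation was tested for them. Control 1 gave 3 of the 5: Uqcr10 at 9.64 against 9.90 to 9.93 on the other controls, Atp5pb at 10.66 against 10.92 to 10.97, and Sdhb at 10.38 against 10.59 to 10.62. Atp5pb was also low on deleted 3, at 10.35 against 10.73 to 10.79. Sdha was low on deleted 4, at 11.55 against 11.75 to 11.78.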

How the results depend on the processing

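No member passed in the main comparison. Cox7a1 alone passed with array weights (count of 1) and with both arrays numbered 1 left out (count of 1), and the other 19 alternatives gave 0. With each array left out in turn the count was 0 throughout, and the number of lower members ran from 36 to 40. It was 24 after quantile normalization again, and 24 there without control 1. Over all genes the count of 138 became 57 with all probe sets, 264 after quantile normalization again, 61 with arrays centred on their medians, 526 with array weights, 325 with the replicate block, and 37 (without deleted 4) to 321 (without control 1) with 1 array left out. It was 366 without both arrays numbered 1, and, in settings added after seeing the data, 411 and 231 without control 1 after quantile normalization again and after centring, and 223 without control 1 and deleted 4. The replicate block called 0 members and changed no member's call. Among the other genes followed by name, it added Ppargc1b, Taco1, Lyve1, Alas2 and Car1 to those called. Medians of complex II ran from −0.11 to −0.046 with 1 array left out, of complex III from −0.056 to −0.0033, of complex IV from −0.085 to −0.033 and of complex V from −0.098 to −0.061. For complex IV the median was −0.023 after quantile normalization again (−0.033 also without control 1), −0.040 after centring (−0.088 also without control 1) and −0.090 without both arrays numbered 1. For complex V it was 0.011 after quantile normalization again without control 1. The cause of these changes was not tested.

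Of the 31 named members 20 never changed sign in the 21 alternatives (Cox6a2 was at 0 without control 1 and deleted 4). Quantile normalization again turned Atp5g2 to 0.070, Cox6a1 to 0.025, Cox7b to 0.068, Cox8a to 0.013, Cycs to 0.016, Sdha to 0.013, Sdhb to 0.00094 and albumin to 0.00047. Without control 1 as well, it turned Atp5g1 to 0.056, Atp5g2 to 0.068, Cox6a1 to 0.021, Cox7b to 0.062, Cox8a to 0.024, Cox8c to 0.055 and Sdha to 0.0028. With 1 array left out in turn, Atp5g2 ran from −0.027 to 0.027, Cox4i2 from −0.0058 to 0.064, Cox6b2 from −0.034 to 0.089 and Cox8c from −0.088 to 0.061. Centring turned Atp5g2 to 0.018 and Cox8c to 0.0025 (0.058 without control 1), array weights Cox6b2 to −0.00093 and Cox8c to 0.022, and leaving out control 1 and deleted 4 Atp5g2 to 0.0033 and Cox8c to 0.090.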
